A study of Homo sapiens with 18 samples.

Results

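The genes encoded by the mitochondrial genome were described in the osteosarcoma cell line Saos-2 under 6 culture conditions. They were chosen by position and name alone, as the rows on the mitochondrial chromosome (MT) whose symbol begins with MT-. Of 50119 genes listed, 37 met this rule: 13 coded for proteins, 2 for ribosomal RNAs and 22 for transfer RNAs. All 37 stood at the positions that GENCODE 29 gives for GRCh38, and all 37 had at least 0.1 FPKM in each of the 18 libraries. FPKM divides the fragments assigned to a gene by the gene's length and the library's total, so it is the scale on which levels of different genes are set side by side here.

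The study asked how culture outside the body changes osteosarcoma cells relative to tumor tissue. Saos-2 is an established human line, and each of the 6 groups held 3 libraries of cells labelled WT. D-2 was a flat 2D culture, D-3 was cells in Matrigel, a basement membrane gel, and DP-3 was a 3D cell-printed tissue. IT was pieces of tumor kept on Matrigel, and each of these 4 groups was collected on day 14. DP-3 day 1 was the printed tissue on day 1. FIT was fresh tumor tissue, grown under the skin of female BALB/c nude mice and taken 2 weeks after inoculation. The study divided the excised tumors, culturing a part as isolated tissue and keeping the rest fresh, so IT and FIT libraries can share tumors. Which libraries share a tumor is not given. Mouse host cells can be present in FIT and IT, the values list human genes, and the 3 libraries of a group are not described as separate cultures or animals, so p-values measure only the spread between libraries, which may be technical. In bulk RNA, fewer cells of a type and less RNA per cell cannot be told apart.

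The mitochondrial genome is a small circle copied and transcribed inside the organelle. Its strands are called heavy and light, and each is transcribed into long precursors that carry many genes. The mRNAs encode core subunits of the respiratory chain and of ATP synthase, the rRNAs build the mitochondrial ribosome, and the tRNAs serve its translation. The tRNAs lie between most of the longer genes, and enzymes that excise them release the mRNAs and rRNAs, most of which then receive a short poly(A) tail. The libraries were prepared from poly(A) RNA, so rRNA and tRNA rows report what that capture retained, including unprocessed precursors, and not the amount of mature rRNA or tRNA. All tRNA genes were 59 to 75 bases long, shorter than the sequenced fragments, so their FPKM may hold reads of neighbouring genes.

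The total of estimated counts was 50327345 to 79082786 per library, except for FIT replicate 3, which had 23721666. The 3 DP-3 day 1 libraries stood apart by their likeness: the median difference of the 37 genes between 2 of them was 0.03 to 0.04 on the log2 scale, against 0.15 to 1.25 within the other groups. No libraries had identical counts, and all 3 were kept. Rows of ribosomal RNA outside the mitochondrion took 0.48% to 5.31% of FPKM, with 4.11% to 4.16% in DP-3 day 1, 3.92% and 3.98% in DP-3 replicates 1 and 3 and 5.31% in FIT replicate 3. Of 24 such rows, 21 or 22 reached 1 FPKM in DP-3 day 1 and 5 to 8 in the other libraries. Of 10 genes of the osteoblast lineage, ALPL, SP7, IBSP and PTH1R stayed below 0.15 FPKM in all libraries, while COL1A1 had 1.79 to 21.0 FPKM. The summed list had 6.67 to 25.0 FPKM in the cultures and 29.9 to 40.8 FPKM in FIT.

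The mitochondrial genes held 9.85% to 34.0% of all FPKM, and the share was lowest in D-2 and D-3. It was 9.85%, 13.6% and 17.0% in the D-2 libraries and 11.97%, 16.6% and 15.0% in the D-3 libraries. FIT had 23.2%, 23.0% and 24.7%, above every library of D-2 and D-3. IT had 23.2%, 25.2% and 18.7%, and DP-3 had 17.7%, 18.5% and 34.0%. The DP-3 mean therefore rested on replicate 3, which held the largest share of the 18 libraries. The DP-3 day 1 libraries had 19.1%, 19.0% and 18.9%.

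**Figure D1:**
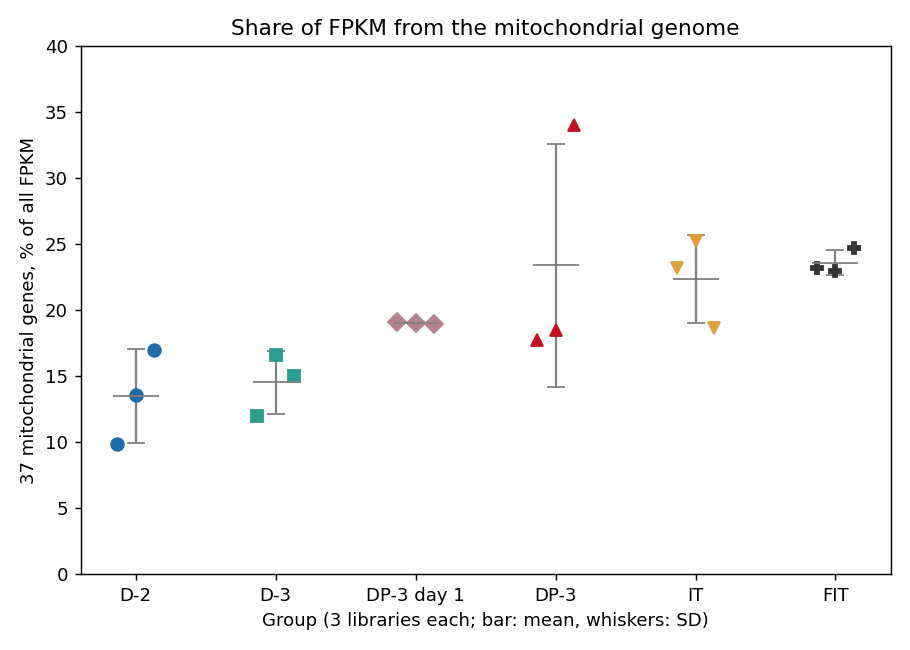
Share of all FPKM (y axis, percent) held by the 37 mitochondrial genes in each library, by group on the x axis; points are libraries, the grey bar is the mean of 3 libraries and the whiskers are the SD. D-2 and D-3 lie between 9.85% and 17.0%, below the 3 FIT libraries at 23.0% to 24.7%, and DP-3 replicate 3 stands alone at 34.0%.

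In order of the means, the share of D-2 was 13.5% ± 3.57, that of D-3 14.5% ± 2.35, that of DP-3 day 1 19.0% ± 0.08, that of IT 22.3% ± 3.34, that of DP-3 23.4% ± 9.20 and that of FIT 23.6% ± 0.95 (SD, n = 3 each). Among neighbours in this order only D-3 and DP-3 day 1 did not overlap, and of all 15 pairs of groups 9 did not overlap. The difference from FIT was -10.1 percentage points for D-2 and -9.08 percentage points for D-3 (exact two-sided permutation test, p = 0.1 each, 0.25 after adjustment over 5 comparisons). With 3 libraries against 3, 0.1 is the smallest p such a test can give. For DP-3 and IT against FIT the differences were -0.20 and -1.25 percentage points (exact permutation p = 1 and 0.9), within the spread between libraries. DP-3 was 4.40 points above DP-3 day 1 (exact permutation p = 1), and 2 of its 3 libraries were below all day 1 libraries. Without DP-3 replicate 3 the share of DP-3 was lower than that of FIT by a log2 ratio of -0.38 and than that of DP-3 day 1 by -0.07. Without D-3 replicate 1 the log2 ratio of D-3 to FIT was -0.58, and without IT replicate 3 that of IT to FIT was 0.03.

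The share of the estimated counts, which are not divided by length, was 2.13% to 9.22%. Within a library the counts of the mitochondrial genes stood in proportion to FPKM times gene length, up to rounding. The count share thus weights the same values in another way and is not a second measurement. Its 95% Wilson intervals were at most 0.02 percentage points wide. They cover counting error only and take each count as a separate fragment, and since the making of the counts is not described they may be too narrow. On this scale D-2 (3.04% ± 0.92) and D-3 (3.48% ± 0.61) were also below FIT (5.46% ± 0.65, SD, n = 3 each) without overlap, and IT was at 5.46% ± 0.83. The mRNAs made up most of the FPKM share: 20.2% of all FPKM in FIT, 19.5% in DP-3, 18.5% in IT, 15.4% in DP-3 day 1, 11.6% in D-3 and 11.3% in D-2. The rRNAs held 0.79% to 3.38% and the tRNA rows 0.75% to 1.92% of all FPKM in single libraries.

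The nuclear genome holds copies of stretches of mitochondrial DNA, and 296 such copies were listed. They took 0.14% to 0.73% of all FPKM, and 3 had a mean of at least 10 FPKM, all on chromosome 1: MTND2P28 (chr1:629640-630683), MTCO1P12 (chr1:631074-632616) and MTATP6P1 (chr1:633696-634376). MTATP6P1, a copy of MT-ATP6, had 200 to 1450 FPKM. Reads of a gene and its near-identical copy can be split between them, so the values of MT-ND2, MT-CO1 and MT-ATP6 are uncertain to that extent.

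The ribosomal RNAs were higher relative to the mRNAs in D-3 and DP-3 than in FIT, and MT-RNR1 was lowest in D-2. MT-RNR1, the small subunit rRNA (ENSG00000211459, MT:648-1601), had 292, 388 and 481 FPKM in D-2 and 905, 891 and 1188 FPKM in FIT. In D-3 it had 741, 813 and 589 FPKM, in IT 658, 810 and 785 FPKM, in DP-3 1035, 903 and 2722 FPKM, and in DP-3 day 1 950, 926 and 934 FPKM. D-2 was lowest, with no overlap with any other group. MT-RNR2, the large subunit rRNA (ENSG00000210082, MT:1671-3229), had 1509, 1840 and 2195 FPKM in D-2 and 2582, 2695 and 4147 FPKM in FIT. It exceeded MT-RNR1 by 2.47- to 5.66-fold, although the mature ribosome holds the pair in equal number.

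The summed rRNA stood at 7.09%, 7.53% and 9.26% of the summed mRNA FPKM in FIT, 17.3%, 11.3% and 13.3% in D-3 and 13.9%, 11.5% and 11.6% in DP-3. The ratio was thus higher in D-3 than in FIT by 0.80 on the log2 scale and in DP-3 by 0.64, without overlap (exact two-sided permutation test, p = 0.1 each, 0.17 adjusted over 5 comparisons). In D-2 it differed by 0.11 and in IT by 0.39, and those libraries overlapped with FIT (exact permutation p = 0.5 and 0.3). DP-3 was below DP-3 day 1, which had 14.8% to 14.9%, by 0.27 on the log2 scale, again without overlap (exact permutation p = 0.1).

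The 13 mRNAs were compared as percentages of their own sum, a scale that does not depend on the nuclear genes. MT-ATP8, a small subunit of ATP synthase (ENSG00000228253, MT:8366-8572), led with a median of 19.7% over the 18 libraries, followed by the cytochrome c oxidase subunits MT-CO1 (13.4%) and MT-CO2 (12.98%) and then by MT-CO3. The complex I subunits MT-ND4 and MT-ND4L, which are translated from a common mRNA, had 8.34% and 8.24%. MT-CYB, the complex III subunit, had 6.39%, and the remaining complex I subunits had 4.71% (MT-ND2), 4.19% (MT-ND6), 3.85% (MT-ND5), 2.94% (MT-ND1) and 2.62% (MT-ND3). MT-ATP6, the other ATP synthase subunit, was last at 1.84%. MT-ATP8 and MT-ND4L are the shortest mRNA genes, at 207 and 297 bases. The library size that the study gives is above the length of MT-ATP8 and near that of MT-ND4L. Whether that size counts adapters is not stated. Both genes share bases with a neighbour, so their FPKM can depend on how reads were assigned.

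**Figure D2:**
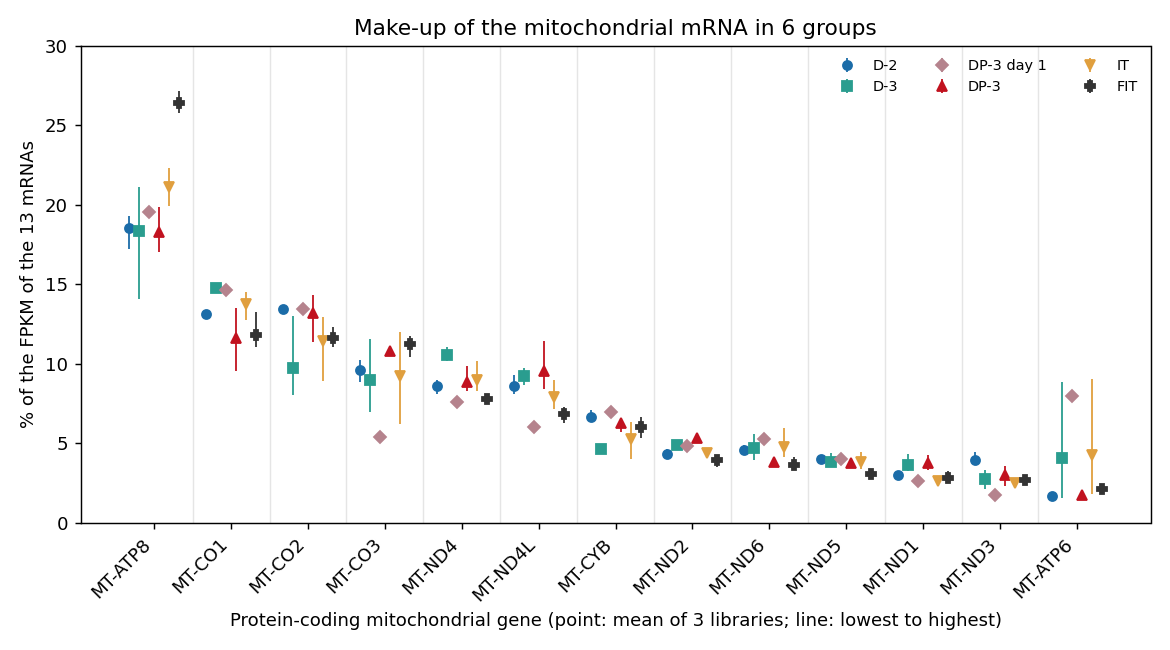
Percentage of the summed FPKM of the 13 mitochondrial mRNAs held by each (y axis), with genes on the x axis ordered by their median over 18 libraries; points are means of 3 libraries and lines run from the lowest to the highest library. MT-ATP8 is above 25% only in FIT, and the lines of D-3 and IT are long at MT-ATP6 because 1 library of each is near 9%.

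The share of MT-ATP8 among the mRNAs separated FIT from all other groups. MT-ATP8 held 27.2%, 25.8% and 26.3% of the mRNA FPKM in FIT and 14.1% to 22.3% in the other 15 libraries. The mean of FIT was 26.4% ± 0.72, against 21.1% ± 1.19 in IT, 18.3% ± 1.47 in DP-3, 18.3% ± 3.76 in D-3 and 18.5% ± 1.11 in D-2 (SD, n = 3 each). Each of the 4 groups was below FIT without overlap (exact two-sided permutation test, p = 0.1 each). Over all 65 tests of mRNA shares the smallest adjusted p was 0.17, and none passed a threshold of 0.05. In FPKM, MT-ATP8 had 13374, 12281 and 15123 in FIT, 3522, 4527 and 6801 in D-2, and 4302, 4537 and 5988 in D-3. DP-3 had 5926, 6571 and 16119 FPKM and IT 10282, 12082 and 7370 FPKM, so that DP-3 overlapped with FIT through replicate 3 and IT did not overlap. MT-ATP6 shares 46 bases with MT-ATP8, and MT-ATP8 exceeded it by 11.4- to 13.7-fold in FIT. Over all libraries this fold was 2.21 to 13.9, and in DP-3 day 1 it was 2.45 to 2.48. The part of read assignment in the MT-ATP8 difference was not tested.

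The summed share of the complex I subunits in the mRNA FPKM was larger in every cultured group than in FIT. Summed over 7 genes they had 30.8%, 31.6% and 30.0% in FIT, 32.4% to 39.2% in IT, 36.5% to 40.9% in DP-3, 37.02% to 41.8% in D-3 and 35.99% to 38.1% in D-2. MT-ND5 had 2.97% to 3.13% in FIT and 3.38% to 4.47% in the other 15 libraries, and MT-ND4 differed from FIT in the same direction and without overlap in IT, DP-3, D-3 and D-2 (exact permutation p = 0.1 each). The 3 DP-3 day 1 libraries had 31.97% to 32.2%. MT-CYB, the only complex III member, was lower in D-3 (4.60% ± 0.20) than in FIT (5.99% ± 0.67) without overlap. The complex IV subunits together had 27.8% to 39.7%, and IT, DP-3, D-3 and D-2 all overlapped with FIT. These shares add up to 100%, so a lower MT-ATP8 share and higher shares of other genes are not separate results.

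MT-ATP6 and MT-CO3 moved in opposite directions between libraries. MT-ATP6 (ENSG00000198899, MT:8527-9207) held 8.02%, 8.00% and 7.87% of the mRNA FPKM in the 3 DP-3 day 1 libraries, 8.86% in D-3 replicate 1 and 9.03% in IT replicate 3. In the other 13 libraries it held 1.52% to 2.26%. MT-CO3 (ENSG00000198938, MT:9207-9990) held 5.30% to 6.94% in those 5 libraries and 8.39% or more in the other 13. Thus, the 5 libraries with more MT-ATP6 were those with less MT-CO3, and 2 of them differed from the replicates of their own group.

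**Figure D3:**
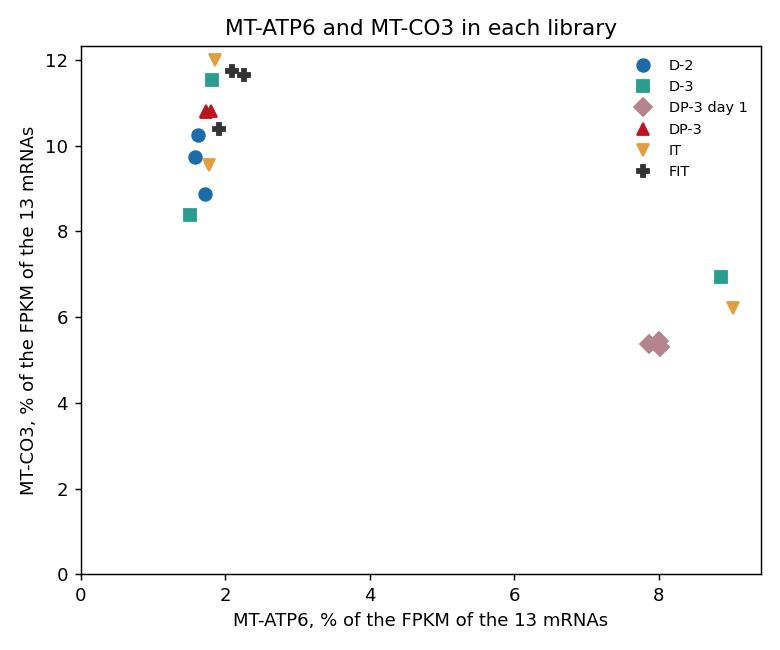
MT-ATP6 (x axis) against MT-CO3 (y axis), each as a percentage of the FPKM of the 13 mRNAs, with 1 point per library and groups by colour and shape. The 3 DP-3 day 1 libraries, D-3 replicate 1 and IT replicate 3 lie at 7.87% to 9.03% MT-ATP6, and the other 13 libraries at 1.52% to 2.26%.

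The pair is encoded next to each other with no tRNA between them, and MT-ATP6 begins inside MT-ATP8. The junctions are shown because the reads of these genes are divided there. Both sequences are from GENCODE 29 transcripts on GRCh38, plus strand, 5′ to 3′, with the bases that belong to both genes in capitals: 46 bases at MT:8507-8592 between MT-ATP8 and MT-ATP6, and 1 base at MT:9187-9227 between MT-ATP6 and MT-CO3.
MT-ATP8 to MT-ATP6: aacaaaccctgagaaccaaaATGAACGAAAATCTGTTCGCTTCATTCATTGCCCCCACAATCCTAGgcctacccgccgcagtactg
MT-ATP6 to MT-CO3: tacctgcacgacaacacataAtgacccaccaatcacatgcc

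The sum of MT-ATP6 and MT-CO3 varied less than either, from 9.91% to 15.8% of the mRNA FPKM, and the 5 libraries lay at 13.2% to 15.8%. The copy MTATP6P1 stood at 0.12- to 0.13-fold of MT-ATP6 in these 5 libraries and at 0.66- to 0.99-fold in the other 13. Adding the copy to MT-ATP6 left the difference in place, at 8.84% to 10.2% against 2.71% to 4.25% of the mRNA FPKM. The part that the assignment of reads at this junction and at the copy has in the MT-ATP6 and MT-CO3 results was not tested.

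MT-ND6 is the only mRNA encoded on the light strand. It stood at 4.43%, 4.75% and 5.14% of the summed heavy-strand mRNA FPKM in D-2, 3.50%, 3.52% and 4.31% in FIT, 3.78%, 4.17% and 3.93% in DP-3 and 5.50% to 5.55% in DP-3 day 1. D-2 was above FIT by 0.34 on the log2 scale and DP-3 below DP-3 day 1 by 0.48, both without overlap (exact two-sided permutation test, p = 0.1 each, 0.25 adjusted over 5 comparisons). The D-3, DP-3 and IT libraries overlapped with FIT (exact permutation p = 0.2, 0.6 and 0.3). These ratios compare RNA retained by poly(A) capture, and the part of capture in them was not tested.

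The tRNA rows were dominated by 4 neighbouring light-strand genes: MT-TA, MT-TN, MT-TC and MT-TY, for alanine, asparagine, cysteine and tyrosine. They held 48.1% to 80.2% of the FPKM of the 22 tRNA rows. A trio encoded next to each other on the heavy strand between MT-ND4 and MT-ND5, namely MT-TH, MT-TS2 and MT-TL2 for histidine, serine and leucine, is shown beside them. These 7 were grouped after their values were seen, so no test is given for the groups. Sequences are from GENCODE 29 on GRCh38, each on the strand of its gene, 5′ to 3′, with the anticodon that a search of the middle of each gene found in capitals.
MT-TA (MT:5587-5655, minus strand): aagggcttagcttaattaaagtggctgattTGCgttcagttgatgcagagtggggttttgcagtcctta
MT-TN (MT:5657-5729, minus strand): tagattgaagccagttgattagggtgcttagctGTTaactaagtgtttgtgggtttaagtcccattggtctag
MT-TC (MT:5761-5826, minus strand): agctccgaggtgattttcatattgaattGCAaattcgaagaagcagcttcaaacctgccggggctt
MT-TY (MT:5826-5891, minus strand): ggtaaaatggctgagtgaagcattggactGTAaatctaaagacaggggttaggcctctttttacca
MT-TH (MT:12138-12206, plus strand): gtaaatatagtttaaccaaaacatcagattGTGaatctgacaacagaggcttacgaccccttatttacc
MT-TS2 (MT:12207-12265, plus strand): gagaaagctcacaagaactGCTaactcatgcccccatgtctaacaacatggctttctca
MT-TL2 (MT:12266-12336, plus strand): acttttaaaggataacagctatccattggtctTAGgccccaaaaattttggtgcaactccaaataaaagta

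The light-strand block summed to 2353, 2199 and 2662 FPKM in FIT, 3258, 3100 and 3884 FPKM in IT, and 1257, 1807 and 1769 FPKM in D-2. Thus, D-2 was lowest of these groups and IT highest, with no overlap among the 3. In D-3 the block had 1224, 2941 and 2323 FPKM, in DP-3 2932, 2410 and 3279 FPKM, and in DP-3 day 1 2144, 2237 and 2096 FPKM. The heavy-strand trio showed another order, with 800, 985 and 950 FPKM in FIT above all other libraries. It had 330, 470 and 164 FPKM in DP-3, 63.3, 540 and 217 FPKM in D-3 and 402, 605 and 661 FPKM in D-2. In IT it had 549, 679 and 143 FPKM, and in DP-3 day 1 298 to 325 FPKM. The block exceeded the trio by 2.23- to 2.94-fold in FIT, 2.68- to 3.13-fold in D-2, 4.57- to 27.1-fold in IT, 5.45- to 19.3-fold in D-3 and 5.13- to 20.03-fold in DP-3. The widest ratios came from D-3 replicate 1, IT replicate 3 and DP-3 replicate 3, and 2 of these 3 were among the libraries with more MT-ATP6.

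**Figure D4:**
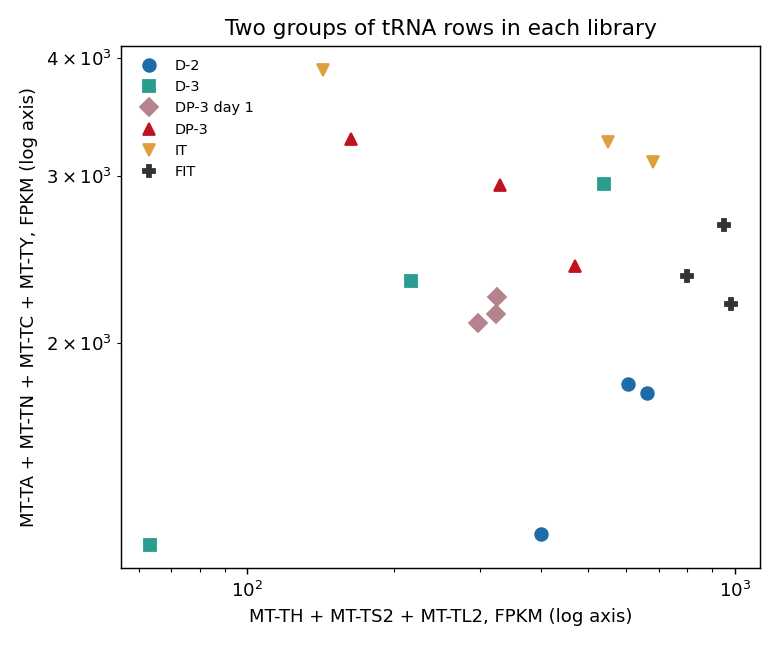
Summed FPKM of MT-TH, MT-TS2 and MT-TL2 (x axis, log scale) against summed FPKM of MT-TA, MT-TN, MT-TC and MT-TY (y axis, log scale), with 1 point per library and groups by colour and shape. FIT lies at 800 to 985 FPKM on the x axis, right of all other libraries, and D-3 replicate 1 lies at 63.3 FPKM.

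The other 15 tRNA rows were mostly low. MT-TG for glycine had a mean of 173 FPKM over all libraries, MT-TP for proline 157, MT-TR for arginine 126, MT-TE for glutamic acid 118 and MT-TL1 for leucine 116 FPKM. The lowest were MT-TS1 for serine, with 0.56 to 3.78 FPKM, MT-TW for tryptophan (1.03 to 11.97 FPKM) and MT-TQ for glutamine (0.36 to 8.93 FPKM). MT-TF for phenylalanine and MT-TV for valine, which flank MT-RNR1, had 4.12 to 7.07 FPKM and 6.34 to 8.75 FPKM in D-2. In the other groups they had 11.01 to 47.7 FPKM and 12.6 to 58.3 FPKM, so both were below every other library in D-2, as was MT-RNR1 between them.

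Changes between groups were then tested on the estimated counts with edgeR's quasi-likelihood test over all genes. A gene was called when its adjusted p (Benjamini-Hochberg) was below 0.05 and its fold change at least 2. The 4 comparisons with FIT share the FIT libraries and are not independent of each other.

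In D-2, 7 of 37 mitochondrial genes fell against FIT (18.9% of the members), beside 14.6% of all 19513 genes tested called and 10.8% called lower. They were MT-ATP8, MT-ATP6 and MT-CO3, MT-RNR1, and the tRNA rows MT-TF, MT-TV and MT-TG. All 37 had a lower fitted value, with a median log2 fold change of -0.63 against -0.09 over all genes. The libraries did not overlap in FPKM for 28 of the 37, all lower (75.7%), beside 49.9% of all genes and 31% lower. MT-ATP8 was 2.46-fold lower (log2 SE 0.24, adjusted p = 0.0081) and MT-RNR1 fell by 1.21 ± 0.20 on the log2 scale (SE, adjusted p = 0.0063). MT-CO3 fell by 1.04 ± 0.18 (adjusted p = 0.0075) from 5777, 5556 and 5988 FPKM in FIT to 1894, 2559 and 3132 FPKM in D-2. MT-ATP6 fell by 1.12 ± 0.24 (adjusted p = 0.013), with 301, 414 and 607 FPKM in D-2 against 1031, 1075 and 1103 FPKM in FIT. MT-TF and MT-TV had the largest values, -2.23 ± 0.55 and -2.03 ± 0.41 (adjusted p = 0.022 and 0.011), but rested on few counts. The D-2 libraries had 28 to 45 estimated counts for MT-TF and 42 to 54 for MT-TV, and FIT replicate 3 had 30 and 47. Of 17 alternative settings, 3 did not call MT-TF, and all called MT-TV. Without D-2 replicate 1, which had the lowest share of the group, 3 genes were called, and 4 without D-2 replicate 2.

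In D-3, 3 of 37 genes fell against FIT (8.11%), beside 6.45% of 21676 genes tested and 2.17% called lower. MT-ATP8 fell by 1.51 ± 0.19 on the log2 scale (SE, adjusted p = 0.0050), MT-CYB by 1.35 ± 0.22 (adjusted p = 0.012) and MT-CO3 by 1.24 ± 0.31 (adjusted p = 0.045). MT-CYB, cytochrome b of complex III (ENSG00000198727, MT:14747-15887), had 1016, 1529 and 1239 FPKM in D-3 and 2930, 2541 and 3844 FPKM in FIT. MT-CO3 had 1504, 3719 and 2379 FPKM in D-3, all below FIT. The median log2 fold change was -0.66, beside 0.02 over all genes, and 20 of 37 did not overlap in FPKM, all lower (54.1%), beside 32.4% of all genes and 11.9% lower. The tRNA trio had the lowest values beside MT-TK for lysine, at -1.77 to -1.83, with D-3 libraries from 63.3 to 540 FPKM in sum, and no tRNA row was called. The count rested on single libraries: leaving out D-3 replicate 2 gave 11 called members and leaving out replicate 3 gave 1. Leaving out replicate 1, the library with more MT-ATP6, gave 2.

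In DP-3, 4 of 37 genes fell against FIT (10.8%), beside 4.82% of 20039 genes tested and 3.16% called lower. All 4 were heavy-strand tRNA rows: MT-TS2 (log2 fold change -1.36 ± 0.34, adjusted p = 0.048), MT-TG (-1.33 ± 0.24, 0.024), MT-TH (-1.29 ± 0.32, 0.048) and MT-TR (-1.06 ± 0.24, 0.039). MT-TG had 111, 157 and 83.5 FPKM in DP-3 and 296, 328 and 332 FPKM in FIT, and MT-TR had 85.1, 119 and 113 FPKM in DP-3 and 201, 268 and 251 FPKM in FIT. No mRNA and no rRNA was called: the mRNAs had log2 fold changes of -0.36 to 0.71 and the rRNAs of 0.70 and 0.80. Of the 37, 8 did not overlap in FPKM, all tRNA rows and all lower (21.6%), beside 34.1% of all genes and 21.6% lower, the same share. Without DP-3 replicate 1, FIT replicate 1 or FIT replicate 2 no member was called, and 1, 1 and 2 were called without DP-3 replicate 2, DP-3 replicate 3 or FIT replicate 3.

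In IT, 0 of 37 genes and 0% of 21183 genes tested were called with edgeR. The 0% of all genes belonged to this setting, where the smallest edgeR adjusted p over all genes was 0.090. It was 6.9e-24 with DESeq2 and 3.5e-05 with edgeR in one fit of all libraries. The study, which used DESeq2, reported differentially expressed genes for this comparison. At an unadjusted p below 0.05 there were 6 members (16.2%), beside 12.7% of all genes, and DESeq2 and limma called 0 members. The mRNAs had log2 fold changes of -0.45 (MT-ATP8) to 0.71 (MT-ATP6), with a median of 0.02. In FPKM, 12 of 37 did not overlap, 5 higher and 7 lower, beside 20.6% of all genes, 11.1% higher and 9.49% lower. The 5 higher were the 4 tRNA rows of the light-strand block and MT-TP, which is encoded on the same strand. The 7 lower were MT-ATP8, MT-RNR1, MT-TG, MT-TR and the heavy-strand trio. MT-ATP6 had 905, 963 and 3341 FPKM in IT, and only replicate 3 was above the FIT libraries. Without that replicate 0 members were called as well.

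**Figure D5:**
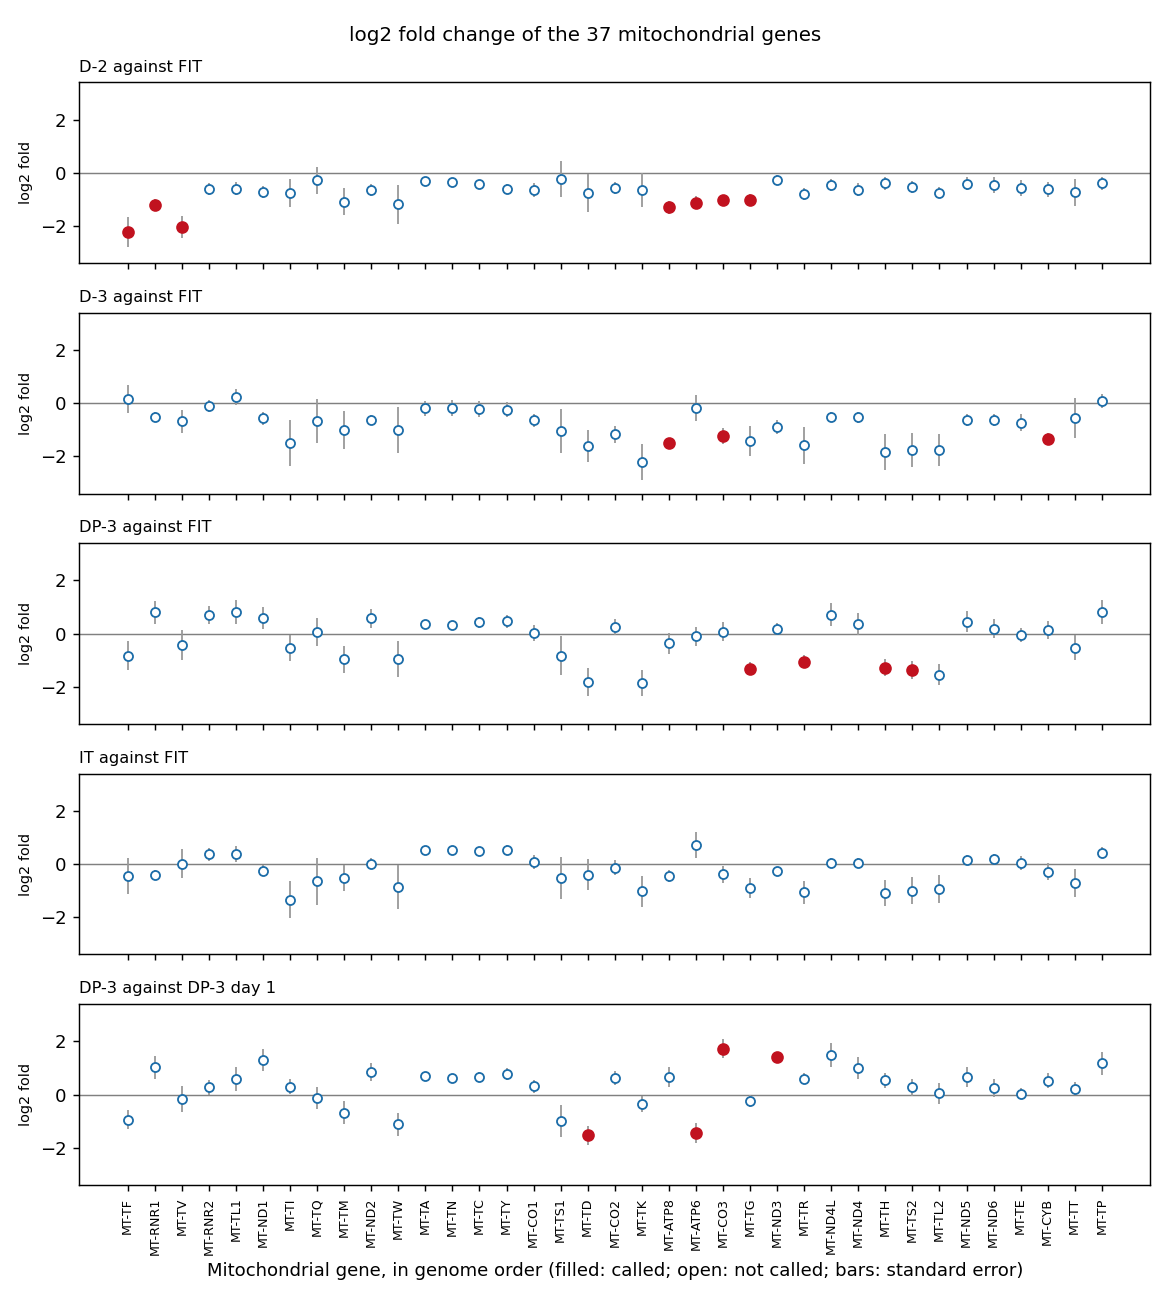
log2 fold changes (y axis) of the 37 mitochondrial genes in genome order (x axis) in 5 comparisons; bars are standard errors and filled points are genes called by edgeR. IT has no filled points, DP-3 has 4 among the tRNA rows, D-3 has 3, and D-2 has 7, all below 0, and DP-3 against DP-3 day 1 has 2 above and 2 below 0.

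Between day 1 and day 14 of the printed tissue, 4 of 37 genes changed (10.8%), 2 in each direction, beside 7.56% of 20774 genes tested, 1.81% higher and 5.76% lower. MT-CO3 rose by 1.73 ± 0.35 on the log2 scale (SE, adjusted p = 0.015) and MT-ND3, a complex I subunit, by 1.41 ± 0.20 (adjusted p = 0.0049). MT-ATP6 fell by 1.45 ± 0.36 (adjusted p = 0.029) and MT-TD, for aspartic acid, by 1.54 ± 0.35 (adjusted p = 0.021). MT-CO3 had 2004, 2047 and 2030 FPKM on day 1 and 3769, 3954 and 8758 FPKM on day 14. MT-ATP6 had 3033, 3011 and 2967 FPKM on day 1 and 603, 636 and 1459 FPKM on day 14, so this pair again moved in opposite directions. With MT-ATP6 and MT-CO3 summed as 1 gene, the sum was not called and 2 members remained. MT-ND3 (ENSG00000198840, MT:10059-10404) had 654, 647 and 655 FPKM on day 1 and 1232, 1187 and 1859 FPKM on day 14. In FPKM, 18 of 37 did not overlap, 10 higher and 8 lower, beside 45.2% of all genes, 9.96% higher and 35.2% lower. Without any 1 of the day 1 libraries only MT-ND3 was called, and 0 members when the 3 were counted as 1 sample.

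A test across all 6 groups and 18 libraries called 17 of 37 members (45.9%), beside 37.3% of 25977 genes (adjusted p below 0.05, edgeR's F test, no fold threshold). The 17 were both rRNAs, 9 mRNAs and 6 tRNA rows. The mRNAs were MT-ND1, MT-ND2, MT-ND3, MT-ND4L, MT-CYB, MT-CO2, MT-CO3, MT-ATP6 and MT-ATP8. The tRNA rows were those of the light-strand block with MT-TF and MT-TV. The smallest adjusted p were 0.0031 for MT-RNR1 and 0.0033 for MT-ND3.

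The nuclear genes that transcribe, process and maintain the mitochondrial genome were described from 6 lists. Few of them were called: 3 of 112 tested in D-2, all higher (3.83% of all genes), 2 of 113 in D-3, both higher (4.29% of all genes), 0 of 112 in IT (0% of all genes), 0 of 113 in DP-3 (4.82% of all genes called), and 3 of 112 in DP-3 against DP-3 day 1, all lower (5.76% of all genes). At an unadjusted p below 0.05 there were 14 in IT (12.5% of the lists, beside 12.7% of all genes), 23 in D-3 (20.4% beside 24.9%), 35 in DP-3 (31% beside 27.6%), 60 in D-2 (53.6% beside 43.3%) and 49 in DP-3 against DP-3 day 1 (43.8% beside 35.8%). Where edgeR made 0 calls, DESeq2 called 2 in DP-3 and 1 in IT. The median log2 fold change of the lists together was 0.38 in D-2, where the mitochondrial genes had -0.63 and all genes -0.09. In D-3, DP-3 and IT it was -0.01, 0.17 and 0.05, where the mitochondrial genes had -0.66, 0.07 and -0.27. Against DP-3 day 1 it was 0.19 in DP-3, where the mitochondrial genes had 0.53.

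Of 28 genes that process or stabilise mitochondrial RNA, 3 rose in D-2. FASTKD5, REXO2 and SUPV3L1 are named after their values were seen. FASTKD5, which takes part in releasing mRNAs that are not flanked by tRNAs, rose by 1.33 on the log2 scale (15.5 ± 1.12 against 6.88 ± 1.21 FPKM, SD, n = 3, edgeR adjusted p = 0.0020). REXO2, an oligoribonuclease, rose by 1.05 (adjusted p = 0.0079), and LRPPRC, which stabilises mitochondrial mRNAs and aids their polyadenylation, by 1.01 (adjusted p = 0.0016). The values of REXO2 and LRPPRC were just over the fold threshold, and FASTKD5 alone was called with library totals, at an FPKM minimum of 1, with limma and without FIT replicate 1. LRPPRC averaged 18.9 ± 0.39 FPKM in D-2 against 10.4 ± 0.06 FPKM in FIT. Its rise was not particular to D-2. The D-3 mean was 19.0 ± 1.70 FPKM (log2 fold change 0.81, edgeR adjusted p = 0.016). The DP-3 mean was 16.7 ± 0.55 FPKM (0.81, 0.015), and both changes stayed under the fold threshold. For IT the mean was 15.5 ± 1.77 FPKM (0.57, 0.23). In D-3, SUPV3L1, the helicase of mitochondrial RNA decay, rose by 1.48 (adjusted p = 0.012). The median of this list was 0.33 in DP-3, 0.0044 in IT, -0.04 in D-3 and 0.48 in D-2.

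Of 19 genes of mitochondrial DNA transcription and replication, TWNK, the replicative helicase, fell in DP-3 against DP-3 day 1 by 1.57 on the log2 scale (3.15 ± 0.26 against 11.4 ± 0.52 FPKM, SD, n = 3, edgeR adjusted p = 0.0014), and no other was called in any comparison. Among 14 mitophagy genes tested, SQSTM1, an autophagy receptor, rose in D-3 by 1.81 (179 ± 44.2 against 49.3 ± 12.2 FPKM, adjusted p = 0.0066) and fell in DP-3 against DP-3 day 1 by 1.44 (81.7 ± 11.6 against 266 ± 9.66 FPKM, adjusted p = 0.0014). ULK1, a kinase that starts autophagy, also fell there, by 1.15 (adjusted p = 0.0018), and is named after its values were seen. With the 3 day 1 libraries counted as 1 sample, TWNK, SQSTM1 and ULK1 were not called against day 1 (adjusted p = 0.22 each), and TWNK was not called in one fit of all libraries (adjusted p = 0.061). None of the biogenesis regulators, the translation factors or the nuclear subunits and assembly factors of the respiratory complexes was called by edgeR. At an unadjusted p below 0.05 there were at most 4 of 12 biogenesis regulators tested, in DP-3 against DP-3 day 1, beside 35.8% of all genes. The highest counts of the translation factors and of the respiratory list were 6 of 13 and 19 of 26. Both were in D-2, beside 43.3% of all genes. The smallest p of these lists belonged to PRKAA1, the catalytic subunit of AMPK, TUFM, the mitochondrial elongation factor, and ATP5F1C, a subunit of ATP synthase. TUFM had 141 ± 4.32 FPKM in D-2 and 101 ± 3.62 FPKM in FIT (log2 fold change 0.63, adjusted p = 0.0037), and ATP5F1C had 75.4 ± 0.83 and 49.8 ± 1.29 FPKM (0.75, 0.0025), both under the fold threshold. PRKAA1 in DP-3 against DP-3 day 1 was 17.3 ± 1.06 against 15.3 ± 0.31 FPKM (0.45, 0.0091).

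Markers of other cells were listed because host tissue is rich in mitochondria in some cell types. Skeletal muscle markers summed to 1.11 to 5.69 FPKM in FIT and to at most 0.87 FPKM elsewhere, and 0 of 10 reached 1 FPKM outside FIT. In FIT, 1 of 10 reached it in replicate 3, and 0 in replicates 1 and 2. MYH2 had the highest value of the list, 3.61 FPKM, and ACTA1, CKM and MB stayed at or below 0.55 FPKM. Endothelial markers, 7 in number, summed to 3.92 to 6.08 FPKM in FIT, 4.31 to 6.58 FPKM in IT and 1.24 to 2.42 FPKM in the other groups, with PECAM1 reaching 5.01 FPKM. Macrophage markers, also 7, summed to 25.3 to 61.8 FPKM in FIT and 47.6 to 120 FPKM elsewhere, and CD68 alone had 18.6 to 115 FPKM, while CD14 reached 0.25 FPKM and MRC1 0.12 FPKM. Red blood cell markers summed to 0.84 FPKM or less. The adipocyte list had 2.55 to 3.61 FPKM in D-3, up to 8.71 FPKM in DP-3 and up to 0.57 FPKM in FIT. Of its genes, FABP4 reached 8.53 FPKM and ADIPOQ 0.02 FPKM. The fibroblast list had 21.4 to 29.4 FPKM in FIT and 5.97 to 18.5 FPKM elsewhere. PDGFRA alone had 4.78 to 28.3 FPKM, while DCN reached 0.09 FPKM and PI16 0.26 FPKM. The nuclear retained RNAs MALAT1 and NEAT1 summed to 6.98 to 9.85 FPKM in D-2 and to 18.7 to 112 FPKM elsewhere. The sums of the muscle, endothelial, fibroblast and osteoblast lists and the mitochondrial share were thus all higher in FIT than in D-2 and D-3. Single members differed. Of those tested, 2 of 5 fibroblast, 2 of 5 osteoblast, 0 of 2 muscle and 0 of 3 endothelial genes had higher fitted values in D-2 than in FIT. In D-3 these were 1 of 4, 2 of 6, 1 of 2 and 1 of 4. The sums of the macrophage and adipocyte lists were higher in D-3 than in FIT, and in D-2 they overlapped with FIT. The part of any of these lists in the difference of the share was not tested.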

How the data were processed

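RNA sequencing values of 18 libraries were used, 3 in each of 6 groups, assigned by the labels of the sample records. The authors prepared stranded libraries from poly(A) RNA, read them in pairs, and, per the labels, processed the reads with cutadapt 1.9, HISAT2 2.0.4 and StringTie 1.3.4d. The genome build is not given in the sources used here. The deposited FPKM values were made by the authors with StringTie. How the deposited estimated counts were made is not given in the sources used here, but for the mitochondrial genes they follow FPKM times gene length within a library. They are whole numbers, and 0 columns of values per sample were left unused. The lowest total was 23721666 and the highest 79082786.

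Members were the rows on MT with symbols beginning with MT-. Shares are sums of FPKM over those of all listed genes. Genes that reached 0.1 FPKM in 3 or more libraries were tested with edgeR 4.0.16 (TMM, estimateDisp, glmQLFit, glmQLFTest, R 4.3.3), each comparison on its own 6 libraries. Values of single libraries were compared with an exact two-sided permutation test (scipy 1.17.1). A correlation of deviations between libraries of the same number was -0.04 to 0.08, so replicate numbers gave no sign of pairing. This cannot exclude that IT and FIT libraries share tumors, since equal numbers need not mark the same animal. The main tests take these libraries as unpaired. Alternatives were median-of-ratios scaling, library totals, TMM without the members, an FPKM minimum of 1, no filter, DESeq2 1.42.0, limma 3.58.1 on log2(FPKM + 0.1) and log2(FPKM + 1), a fit of all libraries, a replicate block and each library left out. Summing MT-ATP6 with MT-CO3 and counting DP-3 day 1 as 1 sample were chosen after seeing the data. The code was tested on simulated data.

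The members, lists and tests were chosen with earlier results of these data known. Named genes were all members, nuclear copies with a mean of at least 10 FPKM, and from each nuclear list the genes called in at least 2 of 5 comparisons or, with none, the gene with the smallest p. FASTKD5, REXO2, SUPV3L1 and ULK1 were added after their values were seen. Tables were made with Python 3.11.15, numpy 2.4.6, pandas 2.3.3 and the R package data.table, version 1.17.8. The level of 1 gene of the osteoblast lineage list is not reported here.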

Additional observations from a re-analysis of the deposited data

How the results depend on the processing

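Counts of called mitochondrial genes depended on the setting, and the cause was not tested. The share of all genes called is given here for the main setting alone. Counts under other settings, or with a library left out, thus have no such share beside them. Whether they exceed that of all genes cannot be read from them. In D-3 against FIT, called as 3, they were 6 with no filter, 10 with DESeq2, 6 in one fit of all libraries, 5 with the replicate block and 1 with limma at either pseudocount. In DP-3 against FIT, called as 4, they were 7 at an FPKM minimum of 1, 7 with DESeq2, 0 in one fit of all libraries and 0 with the replicate block. In DP-3 against DP-3 day 1, called as 4, they were 2 with MT-ATP6 and MT-CO3 summed and 0 with day 1 counted as 1 sample. The 17 members that differed among the groups were 29 with no filter and 30 with DESeq2's likelihood-ratio test. Nuclear genes called in D-2 against FIT fell from 3 to 1 with library totals, at an FPKM minimum of 1 and with limma at either pseudocount. In DP-3 against FIT they were 1 with no filter, 2 with DESeq2 and 1 in one fit of all libraries, against 0, in IT against FIT 1 with DESeq2 and 1 in one fit, against 0, and in DP-3 against DP-3 day 1 5 with no filter and 0 with day 1 counted as 1 sample, against 3.

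With 1 library left out, the called mitochondrial genes ranged from 0 to 2 in DP-3, 1 to 11 in D-3, 3 to 7 in D-2, 0 to 0 in IT, 1 to 5 in DP-3 against DP-3 day 1, and 11 to 24 among the groups. The nuclear genes ranged from 0 to 2, 2 to 3, 1 to 4, 0 to 0 and 3 to 4 in the same 5 comparisons. The mRNAs whose share did not overlap between IT and FIT numbered 3 to 7. The replicate numbers are not described as pairing libraries, and the replicate block gave 0, 5, 7, 0 and 3 called members in the 5 comparisons and 21 among the groups. A library left alone in its group was assumed to vary like the others. No called member changed its direction under any setting run. The log2 ratio of the mitochondrial share, which was not called, changed sign with a library left out: it ranged from -0.38 to 0.09 for DP-3 and from -0.18 to 0.03 for IT against FIT, and from -0.07 to 0.40 for DP-3 against DP-3 day 1. Scaling by library totals moved the median of all genes from -0.09 to -0.24 in D-2, from -0.06 to -0.19 in DP-3 and from -0.06 to -0.32 in DP-3 against DP-3 day 1, and that of the members from -0.63 to -0.79, 0.07 to -0.08 and 0.53 to 0.24. FIT replicate 3 was the shallowest library.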
